A study of Caenorhabditis elegans with 8 samples.

Results

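The C-type lectins described here were the genes whose platform annotation symbol starts with clec-, each represented by its brightest probe set with a single gene symbol. There were 220 such genes among the 17118 genes with a single symbol. All 220 were found in RefSeq's gene list for assembly WBcel235, from which only names and the order of neighbours were taken, and 202 are protein coding there. RefSeq lists 239 protein-coding genes and 25 pseudogenes with a clec- symbol, and 44 of these were not represented by a probe set of their own. Among the 220 probe sets, 30 carry the suffix _s_at or _x_at, which marks probes that may also bind transcripts of other genes. Not all of them are pointed out below, also among the lectins that passed.

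Transcript levels were measured on Affymetrix arrays of whole adult Caenorhabditis elegans of the wild-type strain N2, on day 4 of adulthood, in 4 groups of 2 arrays. Deprived fasted worms had been kept without cholesterol from hatching and were then fasted, deprived fed worms had been kept without cholesterol and stayed on food, and fasted and fed worms given cholesterol were treated in the same ways otherwise. Every group was moved at the start of adulthood to plates containing FUDR, which stops worms from producing progeny, so its effects are shared; the labels do not say whether it was also in the fasting plates. The fast began on day 2 of adulthood according to one label and is given as 48 h there and as 24 h in another, so no duration is assumed. The arrays are described as independent replicates, and the labels do not say that replicates came from separate cultures, so p-values measure the spread between these arrays.

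C-type lectins are proteins with a C-type lectin-like domain, a compact fold held by disulphide bonds that in many family members binds sugars with the help of calcium and in many others does not. In C. elegans the family is large, many members are predicted to be secreted, and a number of them are made in the intestine and change with bacterial infection. Worms cannot synthesise cholesterol and feed on bacteria, so food is also the source of the microbes that the intestine meets.

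Array medians lay between 66.7 and 70.9 intensity units, and the 2 arrays of a group had Pearson correlations of 0.992 to 0.994 over all probe sets tested. Most lectins were dim. Their median signal, as the mean of log2(intensity + 1) over the 8 arrays, was 4.98, against a median of 6.12 for all values on the arrays; 51 of 220 lectins lay above that median and 85 lay below the lower quartile of 4.69. A difference in a dim probe set is understated on this scale. Within a group, the median SD of a lectin between its 2 arrays was 0.09 on the log2 scale, and the highest SD among the 51 brighter lectins was 1.03. The probe sets with the highest signals belonged to clec-87, clec-88 and clec-91, all of the _s_at kind. Signals of different probe sets depend on the probes and do not rank the transcripts. The clec-87 probe set read 16427 and 17984 in deprived fasted worms, 15845 and 15482 in deprived fed worms, 14732 and 17983 in fasted worms given cholesterol and 14437 and 15289.5 in fed worms given cholesterol. None of these 3 probe sets passed the test in any of the 7 contrasts, and their fasting changes lay between 0.13 and 0.35 on the log2 scale. A dimmer second probe set of clec-88, not of the _s_at kind, did pass for fasting averaged over both cholesterol states. Its change there was 0.30 (limma, adjusted p = 0.0444). The other 7 of the 10 brightest, clec-63, clec-1, clec-50, clec-47, clec-266, clec-62 and clec-65, are described below.

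Fasting was accompanied by lower signals of many of the brighter lectins, clec-41, clec-85, clec-67 and clec-50 first among them, in both cholesterol states. In worms kept without cholesterol, 23 lectins fell, 2 rose and 195 did neither (limma, Benjamini-Hochberg adjusted p under 0.05 over all probe sets; "rose" and "fell" are used for this threshold alone). Of all genes 2.09% fell in this contrast; 0.909% of the lectins rose, against 1.07% of all genes. In worms given cholesterol, 18 lectins fell, 1 rose and 201 did neither, so that 8.18% of the lectins fell, against 3.23% of all genes, and 0.455% rose, against 2.17%. Among the 51 lectins above the median signal, 19 fell without cholesterol (37.3%, against 3.54% of all genes above that signal) and 15 fell with it (29.4%, against 5.51%). Of the falls, 22 without cholesterol and 14 with it were at least 2-fold. Most falls over all genes were also at least 2-fold in both states, so this size is not particular to lectins. The median change over all 220 lectins was -0.09 without cholesterol, beside -0.02 over all genes, and 0.10 with cholesterol, beside 0.08; the median with cholesterol was -0.01 after cyclic loess normalisation and -0.06 without the dimmest 40% of probe sets. With each array shifted to an equal median over its brighter probe sets, 18 lectins fell and 4 rose with cholesterol. Of the 28 lectins that passed in either state, 11 had probe sets of the _s_at or _x_at kind, against 13.6% of all 220. With all probe sets of these kinds left out, 16 lectins passed without cholesterol and 10 with it.

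**Figure D1:**
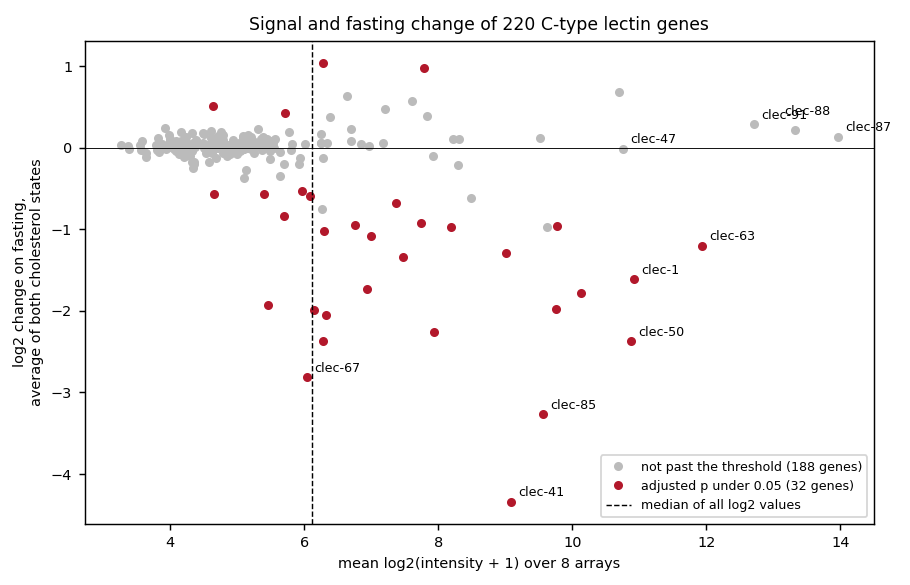
Each point is 1 of the 220 C-type lectin genes, with its mean log2(intensity + 1) over the 8 arrays on the horizontal axis and its fasting change (log2, average of both cholesterol states, 4 fasted against 4 fed arrays) on the vertical axis. The 32 genes past the threshold are red, and 23 of them lie to the right of the dashed line at 6.12, the median of all values; clec-41 is the lowest point at -4.34.

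The falls without and with cholesterol come from separate arrays. They shared 16 lectins, which is 69.6% of the 23 that fell without cholesterol and 88.9% of the 18 that fell with it. Over all genes, the shared falls were 73.9% of those without cholesterol and 47.7% of those with it. All 28 lectins that passed in either state changed in the same direction in both, as did 93.6% of the 1122 genes of any kind that passed in either. Among the 16 shared falls, the change ran from -4.47 to -0.96 without cholesterol (median -2.12) and from -4.20 to -0.85 with it (median -1.80), and 12 of the 16 were larger in size without cholesterol. The group with the lowest mean was the deprived fasted group for 12 of these 16 genes and the fasted group given cholesterol for the other 4. That the lowest group was a fasted group follows from the choice of genes. Neither count of 12 was made over all genes that fell in both states. Whether lectins differ from those genes in this was not tested.

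**Figure D2:**
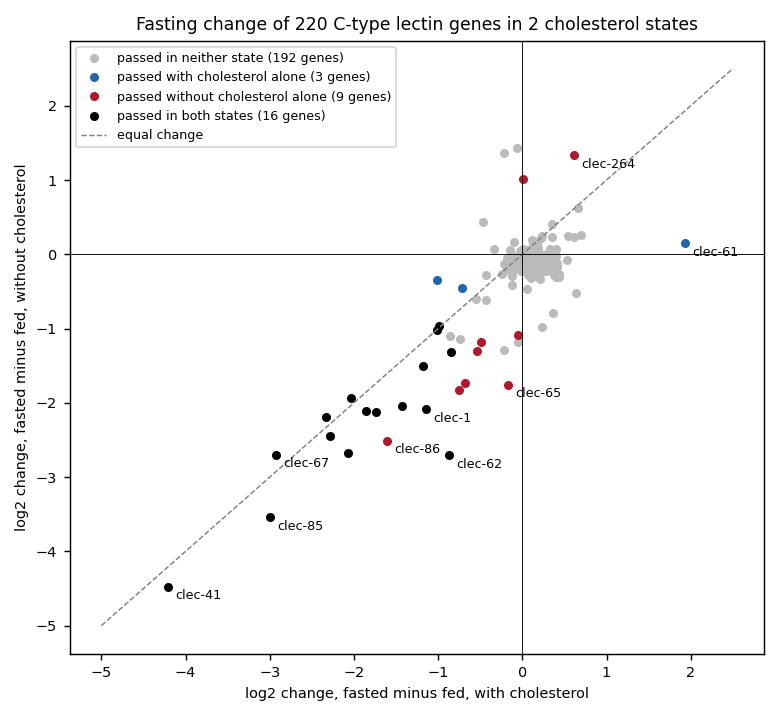
Log2 change on fasting without cholesterol (vertical) and with cholesterol (horizontal) for the 220 C-type lectin genes; each axis comes from 4 arrays, and the axes share none. The 16 genes that passed in both states are black and lie below 0 on both axes, and clec-62 lies furthest below the dashed line of equal change among them.

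The largest fall in either state was that of clec-41, a member of the group of lectins linked to infection in published worm work, whose probe set is of the _s_at kind. Its intensity was 109 and 107 in deprived fasted worms, against 2141 and 2730.1 in deprived fed worms, and 121 and 144 in fasted worms given cholesterol, against 2196 and 2728 in their fed counterparts. All 4 fasted arrays lay far below all 4 fed arrays. The fall was 22.2-fold without cholesterol (-4.47 ± 0.17, adjusted p = 2.48e-05) and 18.4-fold with it (-4.20 ± 0.17, adjusted p = 3.91e-05), where the error is the standard error of the fit with n = 2 arrays per group. In fed worms, clec-41 did not pass for cholesterol deprivation (-0.018 ± 0.17, adjusted p = 0.977).

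The next largest was clec-85, known as a gene that depends on the p38 kinase PMK-1, which acts in intestinal defence. Its intensity was 191 and 138 in deprived fasted worms, against 1742 and 2059 in deprived fed worms. With cholesterol it was 486 and 268 in fasted worms, against 2656 and 3139 in fed worms. Neither pair of groups overlapped, and the changes were -3.54 ± 0.29, adjusted p = 0.000985 without cholesterol and -2.997 ± 0.29, adjusted p = 0.00164 with it. The infection-response lectin clec-67 had 26.1 and 22.02 in deprived fasted worms, against 116 and 224 in deprived fed worms, and 22.1 and 25.8 in fasted worms given cholesterol, against 181 and 196 in fed worms given cholesterol. The fasted arrays of both states read 26.1 or less, close to the lower quartile of the arrays, and the changes of -2.70 ± 0.28 and -2.93 ± 0.28 on the log2 scale are understated where a probe set is that dim. A second probe set assigned to clec-67 together with clec-69 changed by -2.87 without cholesterol and by -2.55 with it.

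Among the brighter members, clec-50 (an _s_at probe set) had 594 and 662 in deprived fasted worms, against 3936 and 4088 in deprived fed worms, and 1266 and 946 in fasted worms given cholesterol, against 4553 and 4607 in fed worms given cholesterol. Its fall was -2.68 ± 0.15, adjusted p = 0.000148 without cholesterol and -2.06 ± 0.15, adjusted p = 0.000526 with it. For clec-1 the values were 545 and 732 in deprived fasted worms, against 2779 and 2584 in deprived fed worms, and 1695 and 2204 in fasted worms given cholesterol, against 4461 and 4062 in fed worms given cholesterol. The 4 groups of clec-1 did not overlap, with the deprived fasted worms lowest. The fasting change of clec-1 was -2.08 ± 0.18, adjusted p = 0.00131 without cholesterol and -1.14 ± 0.18, adjusted p = 0.0151 with it, and in fasted worms clec-1 also fell with deprivation (-1.61 ± 0.18, adjusted p = 0.00994).

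The neighbouring pair clec-186 and clec-187 fell together. The clec-186 probe set read 306 and 330.1 in deprived fasted worms, against 1360.2 and 1390.2 in deprived fed worms, and 662 and 523 in fasted worms given cholesterol, against 2067 and 2209 in fed worms given cholesterol. That of clec-187 read 53.7 and 57.9, against 233 and 233, in deprived fasted and deprived fed worms. With cholesterol, clec-187 read 81.6 and 76.8 in fasted worms, against 219.8 and 209.6 in fed worms. The fasted and fed arrays of both genes were apart in both states, and the changes without cholesterol were -2.11 ± 0.13, adjusted p = 0.000276 for clec-186 and -2.05 ± 0.10, adjusted p = 8.01e-05 for clec-187. With cholesterol they were -1.86 ± 0.13, adjusted p = 0.000509 and -1.43 ± 0.10, adjusted p = 0.000451, in the same order.

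Further falls in both states were those of clec-160 (-2.45 without cholesterol and -2.29 with it), clec-173 (-2.19 and -2.33), clec-265 (-1.94 and -2.03) and clec-210 (-2.13 and -1.74). The probe sets of clec-160 and clec-173 are of the _s_at kind. For clec-160, whose 4 groups did not overlap, the intensities were 26.8 and 24.6 in deprived fasted worms, against 153 and 137 in deprived fed worms, and 45.4 and 40.3 in fasted worms given cholesterol, against 216 and 209.9 in fed worms given cholesterol. The dim clec-210 probe set read 20.2 and 19.4 in deprived fasted worms, against 77.5 and 104.2 in deprived fed worms. The other falls seen in both states were clec-62 and clec-49, described below, and clec-190, clec-57 and clec-222, with changes of -1.50, -1.03 and -0.96 without cholesterol and -1.18, -1.01 and -0.99 with it. A dimmer second probe set of clec-57 changed by -1.43 without cholesterol and by -2.03 with it. With cholesterol, clec-174 (an _x_at probe set, -1.02) and clec-43 (-0.72) passed as well; without cholesterol they changed by -0.35 and -0.46 and did not pass.

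**Figure D3:**
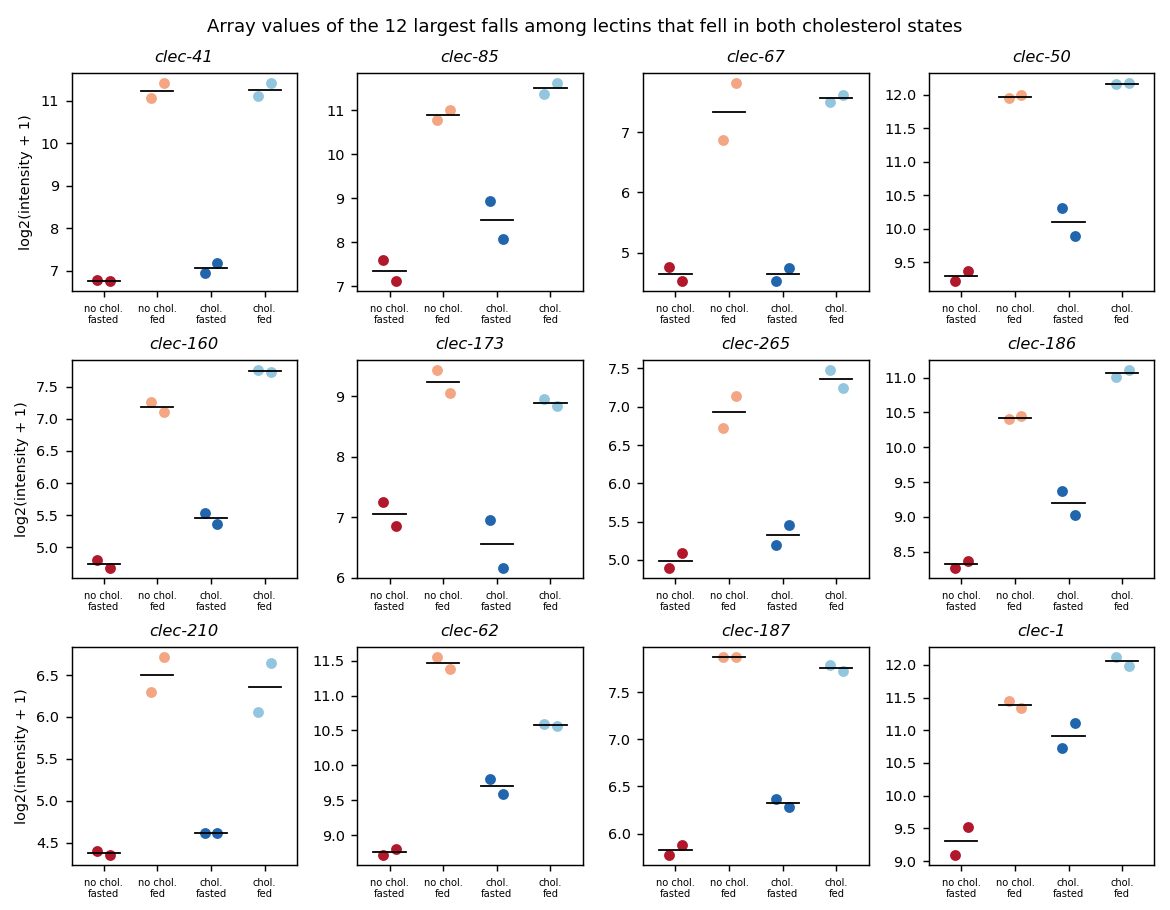
Values of the 12 largest falls (by the average of both states) among the 16 lectins that fell with and without cholesterol. Each point is 1 array as log2(intensity + 1), bars are the means of 2 arrays, and groups run from deprived fasted at the left to fed with cholesterol at the right ("chol." is cholesterol); in each panel the fasted arrays lie below the fed arrays of the same cholesterol state.

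The 7 lectins that fell without cholesterol and did not pass with it were clec-86, clec-5, clec-65, clec-63, clec-51, clec-60 and clec-42. None of the 7 passed a test of the difference between the states; for clec-42 that difference was -1.04 and did pass with limma-trend and without _s_at and _x_at probe sets (adjusted p = 0.041 in each). The clec-63 probe set read 2211 and 1694 in deprived fasted worms, against 6914 and 5953 in deprived fed worms, and 3882 and 3054 in fasted worms given cholesterol, against 5821 and 5228 in fed worms given cholesterol. Its fasted and fed arrays were apart in both states, with changes of -1.73 ± 0.18, adjusted p = 0.00269 and -0.68 ± 0.18, adjusted p = 0.076. For clec-65 (an _s_at probe set), the values were 305 and 399 in deprived fasted worms, against 1161 and 1199.6 in deprived fed worms, and 1278 and 971, against 1489.8 and 1053, in fasted and fed worms given cholesterol. The deprived fasted arrays stood alone, and the other 6 arrays of clec-65 overlapped; the change was -1.75 ± 0.21, adjusted p = 0.00691 without cholesterol and -0.17 ± 0.21, adjusted p = 0.664 with it, and its second probe set changed by -1.70 and -0.09.

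Rises on fasting were few. With cholesterol, clec-61 (an _s_at probe set) read 246 and 240.0 in fasted worms, against 96.9 and 40.9 in fed worms, a rise of 1.93 ± 0.36, adjusted p = 0.0283. Its fed replicates were far apart. Without cholesterol clec-61 read 48.6 and 51.5 in fasted worms, against 53.9 and 37.4 in fed worms, and the groups overlapped (0.15 ± 0.36, adjusted p = 0.896). In deprived worms clec-264 rose, with 462 and 599 in fasted worms, against 222 and 195 in fed worms (1.33 ± 0.22, adjusted p = 0.0243). With cholesterol clec-264 read 146 and 226 in fasted worms, against 126 and 112 in fed worms, and did not pass (0.61 ± 0.22, adjusted p = 0.154). The dim clec-3 probe set rose without cholesterol, with 45.7 and 32.9 in fasted worms, against 19.6 and 17.8 in fed worms (1.01 ± 0.18, adjusted p = 0.0321). A probe set assigned to clec-3 and clec-2 together changed by 0.35 without cholesterol and by -0.13 with it and did not pass. These rises of clec-61, clec-264 and clec-3 did not pass under every alternative described below (other settings and arrays left out). Over the alternatives their changes ran from 1.32 to 2.54, from 1.15 to 1.52 and from 0.66 to 1.25, in the same order.

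Averaged over both cholesterol states, 4 fasted against 4 fed arrays, 28 lectins fell and 4 rose, which is 12.7% and 1.82% of the lectins, against 5.32% and 5.65% of all genes. All 25 lectins that fell in either state fell on average. The 3 further falls were clec-178 (-0.94), clec-76 (-0.57) and clec-205 (-0.53). The 4 rises were clec-61 (1.04), clec-264 (0.97), clec-3 (0.51) and clec-40 (0.42).

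Cholesterol deprivation was accompanied by lower signals of clec-196 and clec-266 in fed worms and of clec-61, clec-65 and clec-1 in fasted worms, and by higher signals of clec-10 in both. In fed worms 3 lectins rose, 3 fell and 214 did neither, which is 1.36% of the lectins in each direction; of all genes 0.572% rose and 0.713% fell. In fasted worms 2 rose, 6 fell and 212 did neither, so that 0.909% of the lectins rose, against 0.701% of all genes, and 2.73% fell, against 0.462%. These contrasts share arrays with the fasting contrasts, since the fed and fasted groups are the same. The median lectin change was 0.09 in fed worms, beside 0.05 over all genes, and -0.13 in fasted worms, beside -0.05. With each of the 8 arrays left out in turn, the count in fed worms was 7 without either deprived fasted array and 3 or fewer without any other, and in fasted worms it was 1 to 5 whichever array was left out; for fasting it was 18 to 26 without cholesterol and 13 to 20 with it. For deprivation, clec-42 in fed worms was the one gene named for these 2 contrasts that passed each time.

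The largest falls in fed worms were those of clec-196 and clec-266. The clec-196 probe set read 64.5 and 67.6 in deprived fed worms, against 484 and 302 in fed worms given cholesterol (5.72-fold, -2.52 ± 0.41, adjusted p = 0.0377). The clec-266 probe set, of the _s_at kind, read 604 and 538 in deprived fed worms, against 2918 and 3126 in fed worms given cholesterol (5.29-fold, -2.40 ± 0.42, adjusted p = 0.0473). The groups did not overlap for either gene. In fasted worms the clec-266 values were 926 and 2555 without cholesterol, against 2443 and 3437 with it, and the deprived replicates differed by more than the groups. Those of clec-196 were 112 and 261 without cholesterol, against 265 and 409 with it, also with an uneven deprived pair; neither gene passed there, at -0.91 and -0.94. The third fall in fed worms was clec-174, with 139 and 142 in deprived worms, against 264.2 and 367 in worms given cholesterol (-1.14 ± 0.16, adjusted p = 0.0232).

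The lectins that rose with deprivation in fed worms were clec-42, clec-10 and clec-62. The clec-42 probe set, of a gene linked to infection, read 75.3 and 78.9 in deprived fed worms, against 33.8 and 32.1 in fed worms given cholesterol (1.20 ± 0.10, adjusted p = 0.0044). In the fasted groups clec-42 read 35.8 and 35.5 without cholesterol, against 31.5 and 32.2 with it, so the deprived fed arrays alone were high. The clec-10 probe set (_s_at) was higher in deprived worms in both feeding states. It read 129 and 127 in deprived fasted worms, against 51.9 and 33.4 in fasted worms given cholesterol (1.60 ± 0.19, adjusted p = 0.0118), and 125 and 118.8 in deprived fed worms, against 53.8 and 51.8 in fed worms given cholesterol (1.19 ± 0.19, adjusted p = 0.0354). All 4 deprived arrays of clec-10 lay above all 4 others, and fasting did not move it past the threshold. Its second probe set changed by 1.16 and 1.01 in the same contrasts.

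In fasted worms, the largest fall with deprivation was that of clec-61, at 48.6 and 51.5 in deprived worms, against 246 and 240.0 in worms given cholesterol (-2.26 ± 0.36, adjusted p = 0.0374). Next were clec-65 (-1.67 ± 0.21, adjusted p = 0.0164) and clec-1, given above. The changes of clec-62, clec-186 and clec-160 were -0.94, -0.89 and -0.71. Beside clec-10, clec-264 rose, with 462 and 599 in deprived fasted worms, against 146 and 226 in fasted worms given cholesterol (1.53 ± 0.22, adjusted p = 0.0261). Of the 6 that fell here, clec-1, clec-62, clec-160 and clec-186 also fell on fasting in both states, and clec-65 did so without cholesterol.

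Averaged over both feeding states, 6 lectins rose and 10 fell with deprivation, which is 2.73% and 4.55% of the lectins, against 2.25% and 2.14% of all genes. The falls were clec-196 (-1.73), clec-266 (-1.66), clec-61 (-1.37), clec-1 (-1.14), clec-65 (-0.88), clec-174 (-0.81), clec-186 (-0.76), clec-160 (-0.63), clec-50 (-0.50) and clec-49 (-0.41). The rises were clec-10 (1.39), clec-264 (1.17), clec-7 (0.71), clec-42 (0.68), clec-233 (0.66) and clec-60 (0.63). For clec-10, clec-42, clec-233, clec-7, clec-174 and clec-196 the 4 deprived arrays did not overlap the 4 others, and for the other 10 they did. These genes were picked by the test on the same arrays, and the share over all genes was not counted. The separation is therefore no further evidence for the calls.

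Other gene lists also moved with deprivation. In the average over feeding states, 5 of 19 intestinal markers rose and 0 fell, 5 of 16 muscle markers fell and 0 rose, and 5 of 7 target genes of the p38 defence pathway fell and 0 rose. Among the other lists given below, 2 of 12 galectins, 2 of 13 other regulators of defence, 2 of 18 neuronal markers and 1 of 10 pharynx markers rose. In the same average 1 of 7 genes of the p38 kinase cascade, 1 of 14 epidermal markers and 1 of 14 embryo markers fell. The intestinal peptide transporter gene pept-1 changed by 1.45 ± 0.085 (adjusted p = 0.000831), the muscle gene unc-87 by -0.87 ± 0.089 (adjusted p = 0.00401) and the lysozyme gene lys-2, a p38 target, by -1.84 ± 0.10 (adjusted p = 0.000536). In fed worms 1 intestinal marker, 1 galectin and 1 pharynx marker rose, 1 muscle and 1 epidermal marker fell and 3 p38 targets fell. In fasted worms 2 intestinal markers rose and 1 fell, 2 galectins rose, 4 muscle markers fell and 2 p38 targets fell. Of 19 germline and oocyte markers 0 passed for deprivation in any of these contrasts (0 in each at an unadjusted p under 0.05 in limma). The part of these lists in the lectin values was not tested.

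**Figure D4:**
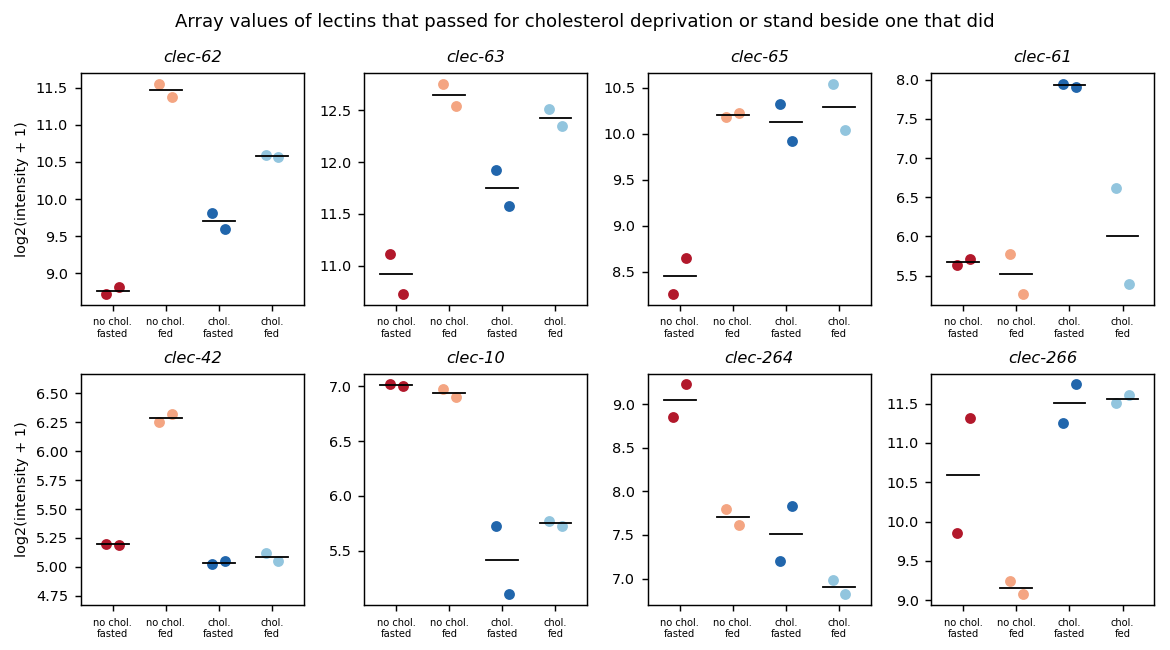
Values of 7 lectins that passed for deprivation in fed worms, in fasted worms or in both, and of clec-63, which neighbours clec-62 and clec-65 and passed for neither. Each point is 1 array as log2(intensity + 1), bars are the means of 2 arrays, and groups run from deprived fasted at the left to fed with cholesterol at the right; clec-10 is high in both deprived groups, clec-42 in deprived fed worms and clec-61 in fasted worms given cholesterol.

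The design also tests whether the fasting change differed between the 2 cholesterol states. The difference (change without cholesterol minus change with it) was past the threshold for 1 lectin, clec-62 (-1.83 ± 0.17, adjusted p = 0.0238), with 0.105% of all genes past it in the same test; its probe set is of the _s_at kind. Its intensity was 420.4 and 448 in deprived fasted worms, against 3005 and 2659 in deprived fed worms, and 897 and 773 in fasted worms given cholesterol, against 1538 and 1519 in fed worms given cholesterol. No group overlapped another, with deprived fed worms highest and deprived fasted worms lowest. On fasting clec-62 fell 6.5-fold without cholesterol (-2.70 ± 0.12, adjusted p = 5.08e-05) and 1.83-fold with it (-0.87 ± 0.12, adjusted p = 0.00854). With deprivation it rose in fed worms (0.89 ± 0.12, adjusted p = 0.0203) and fell in fasted worms (-0.94 ± 0.12, adjusted p = 0.0151). Leaving out any 1 of the 8 arrays ended the interaction call, with no lectin past the threshold in that limma test and 24 to 53 of 220 at an unadjusted p under 0.05 (against 1053 to 2055 of all 17118 genes). With all 8 arrays 48 lectins, or 21.8%, had an unadjusted p under 0.05, against 10.8% of all genes. Over all 220 lectins the interaction had a median of -0.22 and 187 had a negative value, beside a median of -0.07 over all 17118 genes, of which 10267 were negative. After cyclic loess the lectin median was -0.07. The median over all probe sets tested was 0.0082 after cyclic loess and -0.06 without it. Among genes at or below the median signal the interaction median, without cyclic loess, was -0.18 for 169 lectins and -0.17 for all genes. Above the median signal it was -0.32 for 51 lectins, of which 38 (74.5%) were negative, and 0.06 for all genes, of which 40.7% were negative.

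Lectin genes often lie beside each other. By RefSeq gene order, with at most 2 other protein-coding genes between neighbours, 118 of the 202 protein-coding lectins belonged to 37 groups of 2 to 10 genes, and 14 of the 25 lectins that fell on fasting in either state were among them. In 5 groups at least 2 members passed in the same contrast. The run of clec-62, clec-63, clec-64, clec-65 and clec-66 had 3 falls without cholesterol, clec-62 (-2.70), clec-63 (-1.73) and clec-65 (-1.75), while clec-64 at -0.17 and clec-66 at -0.52 did not pass. Of these, clec-64 is dim, with 19.8 to 31.1 intensity units over the 8 arrays. Another run, clec-143 and clec-58 to clec-61, held members that moved apart: clec-60 fell without cholesterol (-1.18 ± 0.18, adjusted p = 0.0181) and clec-61 rose with it, and in the average over feeding states clec-60 rose and clec-61 fell with deprivation.

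The longest run with such changes, 10 genes from clec-67 to clec-79, held clec-67 and clec-174 among the falls with cholesterol. Its members clec-70, clec-71, clec-72, clec-73, clec-74, clec-75 and clec-79 changed by -0.26 to 0.27 over both states and did not pass, and clec-76 fell in the average alone. The pair clec-49 and clec-50 fell in both states. The clec-49 probe set (_s_at) read 72.5 and 66.1 in deprived fasted worms, against 180.0 and 167 in deprived fed worms (-1.31 ± 0.11, adjusted p = 0.00126). With cholesterol it read 115 and 103 in fasted worms, against 189 and 203 in fed worms (-0.85 ± 0.11, adjusted p = 0.0076). A brighter probe set assigned to clec-49 and clec-48 together changed by -0.52 and 0.03 in these contrasts and did not pass. The 5 groups were picked because members passed in the same contrast, so their calls do not show that neighbours move together. Near-identical neighbours can share probes, and the part of this in their values was not tested.

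**Figure D5:**
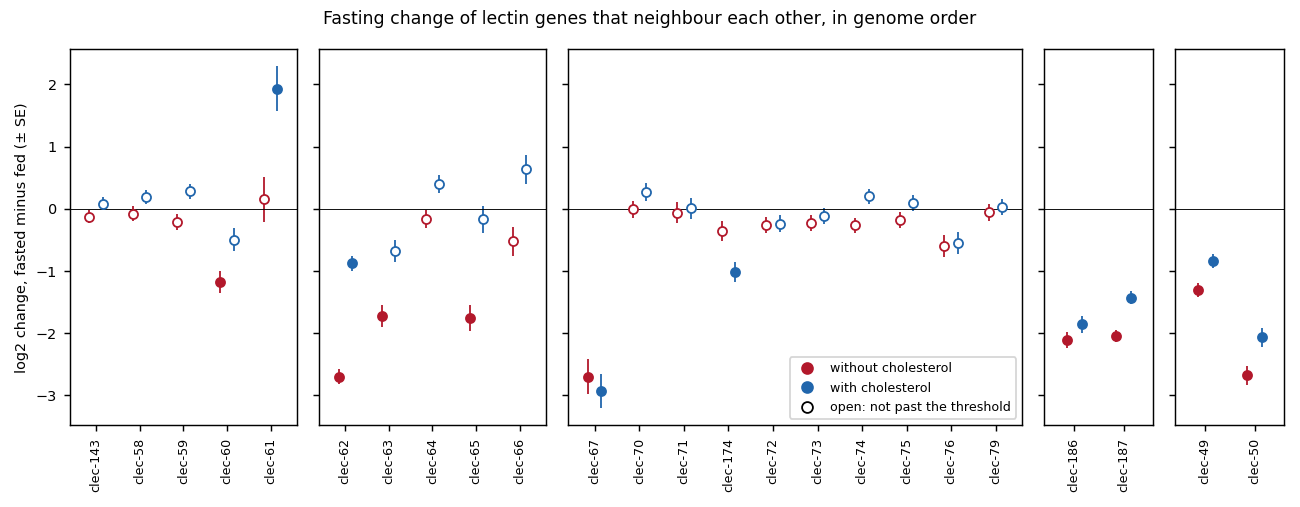
Log2 change on fasting (± SE of the fit, n = 2 arrays per group) for the lectins of the 5 neighbour groups, in genome order within each panel, without cholesterol (red) and with cholesterol (blue). Filled points passed the threshold; the red points of clec-62, clec-63 and clec-65 are filled and those of clec-64 and clec-66 are open.

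A list of 18 lectins linked to bacterial infection in published worm work was measured in full. Without cholesterol, 7 fell, 0 rose and 11 did neither, and with it 4 fell, 0 rose and 14 did neither, where 2.09% and 3.23% of all genes fell. In the same order, 10.5% and 8.18% of all 220 lectins fell. Among the 51 lectins above the median signal these shares were 37.3% and 29.4%. The median of the list was -0.40 without cholesterol, beside -0.02 over all genes, and -0.01 with it, beside 0.08. The members that fell were clec-41, clec-67, clec-85 and clec-49 in both states, and clec-86, clec-60 and clec-42 without cholesterol. The gene clec-49 is known for its part in defence against Serratia, and its partner in that work, clec-39, was dim in every array (10.1 to 11.7 intensity units) and did not pass. The gene clec-60, induced by Staphylococcus aureus in published work, read 48.1 and 36.6 in deprived fasted worms, against 108 and 85.4 in deprived fed worms, and 37.4 and 31.4 in fasted worms given cholesterol, against 52.1 and 45.3 in fed worms given cholesterol. For clec-86, which responds to Microbacterium nematophilum, deprived worms read 65.3 and 28.6 when fasted, against 404 and 156 when fed (-2.51 ± 0.50, adjusted p = 0.0467), with replicates over 2-fold apart.

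The other 11 infection-linked lectins did not pass for fasting in either state. Among them clec-47 read 1768 and 1564 in deprived fasted worms, against 1029 and 1471 in deprived fed worms, and 1489.7 and 2169 in fasted worms given cholesterol, against 2209.9 and 2789.8 in fed worms given cholesterol. The fasted arrays of clec-47 lay above the fed ones without cholesterol (0.43 ± 0.24, adjusted p = 0.446) and below them with cholesterol (-0.47 ± 0.24, adjusted p = 0.278). Neither change passed, nor did their average (-0.016 ± 0.17, adjusted p = 0.973) or the difference between them (0.90 ± 0.33, adjusted p = 0.466). The clec-52 replicates differed about as much as its groups, with 306 and 146 in deprived fasted worms, against 338 and 399 in deprived fed worms (-0.79 ± 0.40, adjusted p = 0.406). For clec-7 the change was 0.25 without cholesterol and 0.70 with it, and for clec-66 it was -0.52 and 0.64. The 7 members clec-4, clec-17, clec-29, clec-33, clec-39, clec-70 and clec-71 changed by -0.27 to 0.41. In the average over feeding states, clec-7, clec-42 and clec-60 rose and clec-49 fell with deprivation.

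Other genes of intestinal defence were measured for comparison. Of 12 galectins, a separate family of sugar-binding proteins, 5 fell and 1 rose in each cholesterol state. The falls were lec-6, lec-8, lec-9, lec-10 and lec-11 in both states, while lec-7 rose without cholesterol and lec-2 rose with it. The change of lec-6 was -2.76 ± 0.18 without cholesterol (adjusted p = 0.000357) and -3.82 ± 0.18 with it (adjusted p = 8.85e-05). Of 7 targets of the p38 pathway, 5 fell without cholesterol and 6 with it, and 0 rose; sysm-1 changed by -6.64 without cholesterol and by -6.61 with it, lys-2 by -5.15 and -3.30 and C17H12.8 by -6.29 and -4.43. The kinase cascade itself was measured for 7 of 8 listed genes, of which 0 passed for fasting in either state (limma; 2 without cholesterol and 1 with it at an unadjusted p under 0.05); the kinase gene pmk-1 changed by 0.18 ± 0.10 without cholesterol and by 0.11 ± 0.10 with it. Of 8 genes of the DBL-1 growth factor pathway 0 passed for fasting in either state (4 and 3 at an unadjusted p under 0.05). The same held for 13 other regulators of defence (3 and 2), among them the intestinal GATA factor gene elt-2, which changed by -0.45 ± 0.15 without cholesterol and by -0.21 ± 0.15 with it. In the average over both cholesterol states, 1 of the 7 cascade genes rose (sek-1, 0.44 ± 0.10). So did 2 of the 8 DBL-1 pathway genes (sma-9, 0.61 ± 0.11, and sma-10, 0.71 ± 0.17), and 0 of the 13 other regulators passed.

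The fall of lectins on fasting was accompanied by lower levels of some tissue markers. Of 19 intestinal markers, 5 fell and 0 rose without cholesterol, and 5 fell and 1 rose with it. Their summed intensity was 10801 to 12368 in deprived fasted worms, against 23480 to 24975 in deprived fed worms, and 11633 to 13203 in fasted worms given cholesterol, against 27069 to 27448 in fed worms given cholesterol. The microvillar actin gene act-5 changed by -1.65 ± 0.15 without cholesterol and by -1.51 ± 0.15 with it, the protease gene asp-1 by -3.02 ± 0.18 and -1.43 ± 0.18, and the peptide transporter gene pept-1, which rose with cholesterol, by 0.69 ± 0.12 there. Of 16 muscle markers 4 fell without cholesterol and 3 with it, with a summed intensity of 9390 to 12993 in deprived fasted worms, against 17262 to 17999 in deprived fed worms, and 16164 to 18675 in fasted worms given cholesterol, against 22466 to 23408 in fed worms given cholesterol. Of 14 epidermal markers 0 passed in either state (8 without cholesterol and 5 with it at an unadjusted p under 0.05 in limma), and their summed intensity was 5415 to 6298 in deprived fasted worms, against 8231 to 9769 in deprived fed worms, and 5983 to 7467 in fasted worms given cholesterol, against 9064 to 11332 in fed worms given cholesterol. The 19 germline and oocyte markers, of which 0 passed (0 without cholesterol and 2 with it at an unadjusted p under 0.05), summed to 113755 to 120385 in deprived fasted worms, against 120363 to 124298 in deprived fed worms, and 103540.4 to 121034 in fasted worms given cholesterol, against 117473 to 125004 in fed worms given cholesterol. These sums follow the brightest markers of a list. The median log2 change without and with cholesterol was -0.45 and -0.49 for the intestinal markers and -0.79 and -0.40 for muscle. It was -0.35 and -0.34 for the epidermal markers and -0.14 and -0.19 for the germline and oocyte markers. Of 18 neuronal markers 1 rose without cholesterol and 2 rose with it. Among markers of sperm (14 genes), embryos (14), coelomocytes (4) and the pharynx (10), 1 coelomocyte gene fell without cholesterol and 1 embryo gene rose with it. In the average over both cholesterol states, beside the 28 falls among lectins, 9 of the 19 intestinal markers fell and 1 rose. There, 9 of 16 muscle markers and 5 of 14 epidermal markers fell, and 4 of 18 neuronal markers and 1 of 14 embryo markers rose. Single falls were those of 1 germline, 1 sperm, 1 coelomocyte and 1 pharynx gene. In the same average 5 of 12 galectins fell and 2 rose, and 6 of 7 p38 targets fell. All intestinal, muscle, epidermal, germline and neuronal markers measured were above the lower quartile of the arrays in at least 1 array. The part of these markers' changes in the lectin values was not tested, and in whole worms fewer cells of a type and less RNA per cell cannot be told apart.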

How the data were processed

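Transcript levels were measured in whole worms with an Affymetrix array, from 100 ng of total RNA per array, per the labels' protocols. The deposited values are 1 intensity per probe set and array on a linear scale, made by the authors with RMA (per the submitters' processing notes, which name no version). This step makes arrays alike in distribution, so a shift shared by most probe sets would not be seen. Scanner files and array build were not used here.

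Of 22625 probe sets, 77 Affymetrix controls were left out, and 22548 were tested: 20766 with 1 gene symbol, 887 with several and 895 with none. Each gene was represented by its brightest probe set with 1 symbol. All 8 arrays entered 1 limma fit (limma 3.58.1, R 4.3.3) on log2(intensity + 1), with 4 group means, 4 residual and 3.37 prior degrees of freedom and Benjamini-Hochberg adjustment over all probe sets of a contrast; adjusted p under 0.05 was the threshold in 7 contrasts. The number of arrays limits the precision. On simulated data for fasting with cholesterol over 22548 probe sets, 61% of 100 probe sets changed 2-fold and 89% of 100 changed 4-fold were recovered, with 8 false calls. The simulated noise was independent between arrays, and only these probe sets changed, all upward in 1 group. The arrays had more calls in both directions and deviations shared by replicate number, so the simulated rates need not hold for them.

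The genes named were up to 10 of the largest rises and falls per contrast, the 10 brightest, 18 lectins linked to infection, members of neighbour groups with at least 2 calls in a contrast, and up to 3 genes of each other list per contrast; others were named after their values were seen, to complete a count. The members and lists were chosen with earlier results of these data known. The fits used no block for the replicate number, which no label ties to a batch. The alternatives were 8 other settings and leaving out each array. Figures were drawn with matplotlib 3.10.9.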

Additional observations from a re-analysis of the deposited data

Results flagged for a closer look

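One gene met a rule for differences between groups, and it did so in 2 ways. For clec-62, the fasting change without cholesterol minus that with cholesterol was -1.83 on the log2 scale (limma, adjusted p = 0.024), with fasting changes of -2.70 without cholesterol and -0.87 with it. The same -1.83 is the deprivation change in fasted worms minus that in fed worms, where every deprived fasted array lay below every fasted array given cholesterol and every deprived fed array lay above every fed array given cholesterol. With each of the 8 arrays left out in turn, its adjusted p reached up to 0.168. Its probe set is of the _s_at kind and may also measure other genes; their part was not tested.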

How the results depend on the processing

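With 2 arrays per group, and many lectins near the lower end of the signal, changes in dim genes are the least precise. The counts of lectins past the threshold were 25 for fasting without cholesterol, 19 with it, 6 for deprivation in fed worms, 8 in fasted worms, 1 for the interaction, 32 for fasting on average and 16 for deprivation on average. With the replicate block they were 32, 31, 17, 14, 4, 39 and 24, and all lectins that passed without it remained; the 4 interactions were clec-5, clec-42, clec-62 and clec-63. Deviations of same-numbered arrays from their group means correlated at 0.218 to 0.530 in all 6 pairs of groups, but with 2 numbers and no label that ties a number to a batch, the numbers are not known to pair the arrays. Without _s_at and _x_at probe sets they were 16, 10, 4, 4, 1, 22 and 9, and the 1 interaction was clec-42 (adjusted p = 0.041) in place of clec-62, whose probe set was left out. With a pseudocount of 16, deprivation gave 3 in fed worms, 5 in fasted worms and 10 on average. With limma-trend, deprivation in fed worms gave 10 and the interaction 2. Cyclic loess, the shift to the brighter probe sets, the filter on the dimmest 40% and the mean over probe sets moved no count by over 1.5 times. They shifted the median change over everything in the fit, not over genes with 1 symbol alone, by less than 0.1. Leaving out each array in turn gave 18 to 26 for fasting without cholesterol, 13 to 20 with it, 1 to 7 for deprivation in fed worms, 1 to 5 in fasted worms, 0 in each case for the interaction, 26 to 33 for fasting on average and 7 to 14 for deprivation on average. In fed worms deprivation gave 1 without either deprived fed array, 2 and 1 without cholesterol fed array 1 and 2, and 3 without either fasted array given cholesterol. In fasted worms it gave 1 and 3 without deprived fasted array 1 and 2, 4 without either deprived fed array, 2 and 5 without fasted array 1 and 2 given cholesterol, and 5 without either fed array given cholesterol. On average it gave 8 without either deprived fed array, and 7 and 8 without array 1 of the fasted and the fed group given cholesterol. The cause was not tested. Where 1 array is left of a group, it is assumed to vary like the other groups. Of 68 named results, 37 passed under every alternative that gave a value, 18 of them with a value under all 16; 30 results had none without _s_at and _x_at probe sets and 7 had none with the dimmest 40% left out. Of the 1051 values, 0 reversed; 10 of 11 falls or rises on fasting with cholesterol and 8 of 12 without it passed with each array left out, against 1 of 6 and 0 of 8 for deprivation in fed and fasted worms.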

Other observations

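Outside the 220 genes, 22 probe sets are assigned to a lectin together with another gene and were left out of every count. Of these, 2 passed for fasting without cholesterol, 2 with it and 1 for deprivation in fasted worms. The probe set of clec-69 and clec-67 changed by -2.87 without cholesterol and by -2.55 with it. That of F56A4.2 and clec-209 changed by -2.90 and -2.09 on fasting and by -1.58 with deprivation in fasted worms (limma, adjusted p = 0.0089). Which of the genes gave these signals cannot be told from the array.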
